A study of Mus musculus with 12 samples.

Results

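Autotaxin (Enpp2), the LPA receptor genes Lpar1, Lpar2, Lpar3, Lpar4 and Lpar6, the S1P receptor genes S1pr1, S1pr2 and S1pr3, and the sphingosine kinase gene Sphk1 were followed across bulk RNA-seq libraries of Pdgfra+ lung mesenchymal cells. These 10 genes were chosen by name out of the 40760 genes in the table. Cells carrying CD140a, the protein of Pdgfra, were sorted by flow cytometry from lungs of male mice of the bleomycin (bleo) model of pulmonary fibrosis, and RNA was made into full-length cDNA. There were 12 libraries in 4 groups of 3: wild-type (WT) with vehicle, Pear1-/- with vehicle, WT with bleo and Pear1-/- with bleo. The study describes its Pear1 knockout as a knockout-first allele on a C57BL/6 background, in which an inserted cassette could trap and truncate the transcript. It is a different line from the study's knockout specific to mesenchymal cells. The mice were young adults by the methods of the study, but the number behind each library is not given in the sources used here, and no bleo dose or day of harvest is stated for these libraries in particular, so the p-values below measure only the spread between libraries.

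LPA and S1P are bioactive lysophospholipids that act outside the cell. Autotaxin is a secreted lysophospholipase D that makes LPA from lysophosphatidylcholine, while sphingosine kinases make S1P from sphingosine inside the cell. Both lipids act through G protein-coupled receptors that signal through Gi, Gq and G12/13, and the autotaxin and LPA1 axis is a well-known route in bleo-induced lung fibrosis.

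Depth, the check of the labels and the sort bear on what follows. Total counts ran from 6702948 to 10447101 per library, and 3 counts in a library, used as the limit of detection, stood for 0.287 to 0.448 CPM (counts scaled to the library total). Pear1 itself read 547 ± 28.8 normalized counts (mean ± SD, n = 3) with vehicle and 254 ± 14.0 with bleo in libraries labelled WT. In libraries labelled Pear1-/- it read 520 ± 24.0 with vehicle and 357 ± 14.2 with bleo. The targeted gene thus differed by -0.08 on the log2 scale between the vehicle groups (edgeR adjusted p = 0.490) and was higher by 0.48 in Pear1-/- bleo than in WT bleo (edgeR adjusted p = 7.54e-05), so its RNA level did not check the genotype labels. Groups are called by their labels below, and every direction between genotypes rests on those labels. The replicate labelled WT vehicle 2 stood apart from WT vehicle replicates 1 and 3, with a chi-square per degree of freedom over genes of 25.2 to 26.0, and stood close to the 3 libraries labelled Pear1-/- vehicle, at 1.81 to 2.92. The other 10 pairs of libraries within a group gave 1.37 to 5.46. Pdgfra was read in every library, at 1338 to 4802 normalized counts. Sftpc, an alveolar epithelial gene, read a mean of 15048 normalized counts in WT vehicle and 17592 in Pear1-/- vehicle. The summed level of 10 epithelial markers was 4860 to 6132 CPM with vehicle and 1711 to 1738 CPM with bleo in WT. In Pear1-/- that sum was 5763 to 6583 CPM with vehicle and 767 to 776 CPM with bleo. No marker of endothelial, epithelial, leukocyte or mural cells was at 0 in all 12 libraries. The summed level of 20 leukocyte markers was 3519 to 4186 CPM with vehicle and 17831 to 18090 CPM with bleo in WT, whereas in Pear1-/- it was 4074 to 4327 CPM with vehicle and 8007 to 8213 CPM with bleo. In such libraries, fewer cells of a type and less RNA per cell cannot be told apart.

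Levels between genes were compared in TPM, in which counts are divided by exon length and scaled to the library, and levels of 1 gene between libraries in normalized counts, which are the deposited counts divided by a size factor per library. In WT vehicle the most abundant member was Enpp2, at 119 ± 33.9 TPM (SD, n = 3), and it ranked 839 among the 38975 genes with any count there. Lpar1 at 85.5 ± 3.32 TPM, S1pr3 at 84.6 ± 13.2 TPM and S1pr1 at 77.5 ± 2.37 TPM came next, and the range of S1pr3 overlapped those of Lpar1 and S1pr1. Sphk1 at 23.7 ± 1.42 TPM and S1pr2 at 23.2 ± 1.58 TPM formed a lower tier. Lpar6 at 7.42 ± 1.93 TPM, Lpar3 at 3.98 ± 0.703 TPM, Lpar4 at 1.81 ± 0.613 TPM and Lpar2 at 0.374 ± 0.0355 TPM were low. After bleo the order differed between genotypes. In WT bleo, S1pr1 at 49.9 ± 2.66 TPM and Lpar6 at 45.8 ± 2.23 TPM were the highest, while in Pear1-/- bleo S1pr3 led with 106 ± 3.52 TPM, and Sphk1 followed at 59.2 ± 2.45 TPM.

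**Figure D1:**
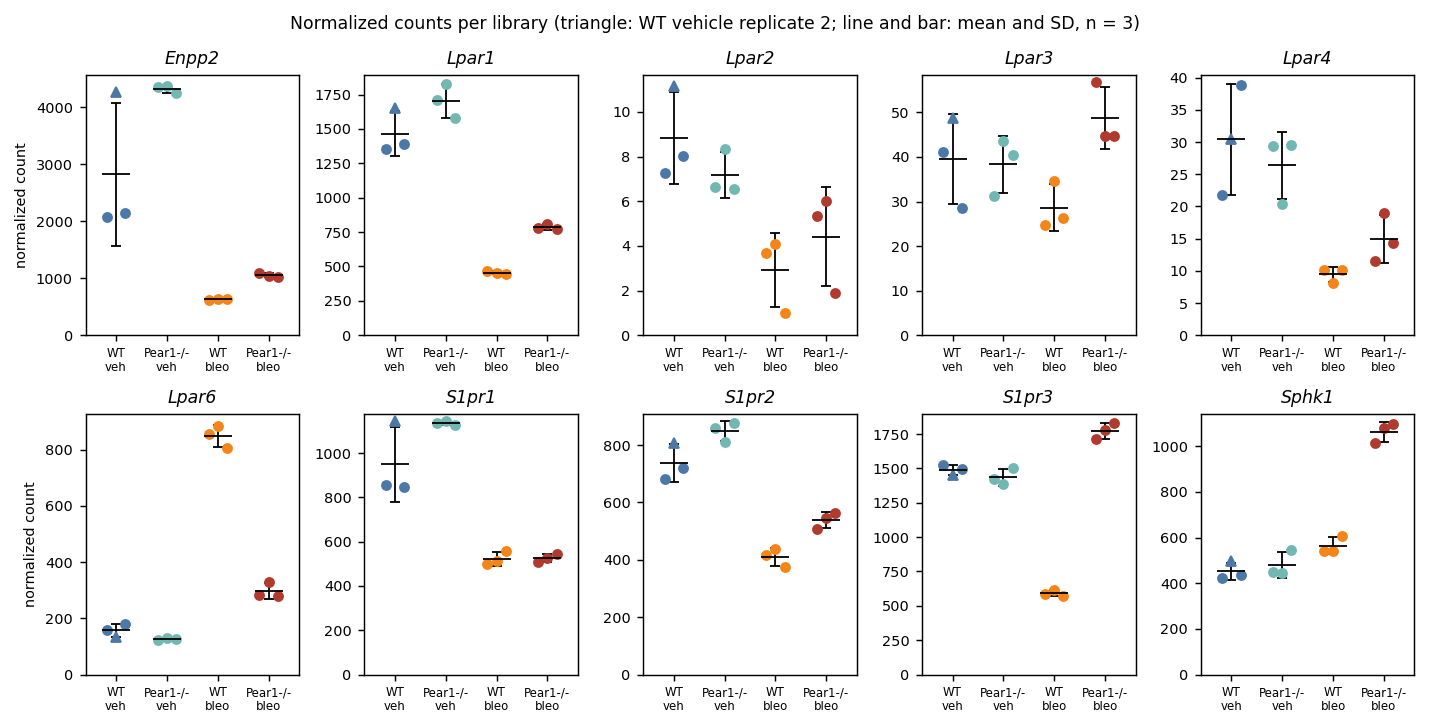
Normalized counts (linear axis from 0) of the 10 genes in each of the 12 libraries, by group, with the mean and SD of 3 libraries. WT vehicle replicate 2, drawn as a triangle, lies with the Pear1-/- vehicle libraries for Enpp2, and Lpar6 and S1pr3 show opposite patterns in the bleo groups.

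Enpp2, which makes extracellular LPA, lies on chromosome 15 (GRCm38, chr15:54838901-54952892, minus strand). Its normalized counts were 2070, 4272 and 2139 in WT vehicle replicates 1, 2 and 3. They were 4350, 4369 and 4250 in Pear1-/- vehicle. In WT bleo the libraries read 625, 642 and 632, and in Pear1-/- bleo 1098, 1040 and 1027. All 6 bleo libraries lay below all 6 vehicle libraries, the Pear1-/- bleo libraries lay above the WT bleo libraries, and the vehicle groups overlapped through WT vehicle replicate 2 alone. Enpp2 fell by 2.15 on the log2 scale with bleo in WT (SE 0.251, edgeR adjusted p = 5.12e-05) and had a log2 fold change of -2.03 in Pear1-/- (SE 0.247, edgeR adjusted p = 8.39e-05). Without WT vehicle replicate 2 the log2 fold change in WT was -1.66 (edgeR adjusted p = 3.27e-32). Enpp2 was 1.65-fold higher in Pear1-/- bleo than in WT bleo (log2 fold change 0.72, SE 0.245, edgeR adjusted p = 0.0384). That call rested on the estimate of spread: the fold change hardly moved, from 0.68 to 0.74 on the log2 scale over 21 alternative settings, but the adjusted p ranged from 2.01e-26 with the bleo libraries alone to 0.148 without a filter on low counts, and 11 of the 21 passed.

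In the vehicle groups Enpp2 was the member that WT vehicle replicate 2 moved most. With all libraries the difference between Pear1-/- vehicle and WT vehicle was 0.61 (log2, SE 0.238, edgeR adjusted p = 0.123). Without that library it was 1.11 (SE 0.0563, edgeR adjusted p = 3.49e-24), a 2.15-fold higher level in Pear1-/- vehicle. The interaction, that is the change with bleo in Pear1-/- minus that in WT, was 0.12 (SE 0.340, edgeR adjusted p = 0.827) with all libraries and turned to -0.39 (SE 0.0791, edgeR adjusted p = 3.75e-05) without it. Whether Enpp2 responded to bleo differently in the 2 genotypes thus turned on 1 library.

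Lpar1, the receptor through which LPA drives fibroblast migration and survival, lies on chromosome 4 (chr4:58435255-58553898, minus strand). Its normalized counts were 1353, 1654 and 1391 in WT vehicle and 1707, 1824 and 1577 in Pear1-/- vehicle. They were 467, 454 and 445 in WT bleo and 779, 811 and 772 in Pear1-/- bleo. The 2 bleo groups did not overlap each other or either vehicle group, while the vehicle groups overlapped. Lpar1 fell by 1.67 on the log2 scale with bleo in WT (SE 0.0827, edgeR adjusted p = 1.53e-12), and its log2 fold change was -1.11 in Pear1-/- (SE 0.0800, edgeR adjusted p = 6.95e-10). The smaller drop in Pear1-/- passed the test of the interaction (0.57, SE 0.114, edgeR adjusted p = 6.85e-04), also without WT vehicle replicate 2, where it was 0.39 (edgeR adjusted p = 2.83e-04). Lpar1 was 1.71-fold higher in Pear1-/- bleo than in WT bleo (edgeR adjusted p = 2.71e-07). Pdgfra, the gene of the sorted marker, ran the same way, at 4565 normalized counts with vehicle and 1360 with bleo in WT (log2 fold change -1.74) and 4165 and 2392 in Pear1-/- (-0.80), and its part in the values of Lpar1 was not tested.

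Lpar6 moved the other way. It encodes an LPA receptor known from its role in hair growth. It is a gene of 1 exon on chromosome 14 (chr14:73237895-73243294, plus strand) that lies inside the retinoblastoma gene Rb1 on the opposite strand, with 408 shared exonic bases. The counting is not stated to use strand, so reads of those bases cannot be told apart. The 250 bases before the RefSeq start of Lpar6 (GRCm38.p6, chr14:73237641-73237890, plus strand) and, below, of S1pr3 are shown because these receptors gave the largest opposite differences between the bleo groups, with matches to searched motifs in capitals. The Lpar6 window held GGAATG, the core of TEAD sites, read on the other strand as CATTCC and starting 23 bases before the start, and the SMAD box CAGACA starting 14 bases before it.
Lpar6: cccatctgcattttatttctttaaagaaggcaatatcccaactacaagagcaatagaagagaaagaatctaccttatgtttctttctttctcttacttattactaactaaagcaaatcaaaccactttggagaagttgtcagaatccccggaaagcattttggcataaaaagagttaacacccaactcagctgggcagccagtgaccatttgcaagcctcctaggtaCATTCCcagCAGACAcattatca

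Lpar6 read 158, 134 and 179 normalized counts in WT vehicle and 124, 129 and 128 in Pear1-/- vehicle. After bleo it read 856, 885 and 807 in WT and 284, 330 and 278 in Pear1-/-. Every bleo library was above every vehicle library, and the WT bleo libraries were far above those of Pear1-/- bleo. Lpar6 rose 5.47-fold with bleo in WT (log2 fold change 2.45, SE 0.102, edgeR adjusted p = 1.10e-13) and 2.35-fold in Pear1-/- (1.23, SE 0.106, edgeR adjusted p = 8.59e-09). It was 2.88-fold lower in Pear1-/- bleo than in WT bleo (log2 fold change -1.52, SE 0.0931, edgeR adjusted p = 1.50e-10), and the interaction was -1.22 (SE 0.148, edgeR adjusted p = 3.31e-06).

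Other values moved with Lpar6. Rb1 rose by 1.0 on the log2 scale with bleo in WT (edgeR adjusted p = 1.33e-06) and by 0.54 in Pear1-/- (edgeR adjusted p = 0.00152), and was lower in Pear1-/- bleo than in WT bleo (-0.74, edgeR adjusted p = 5.89e-05), all smaller than for Lpar6. Of the 20 leukocyte markers, 15 rose and 4 fell with bleo in WT, and 11 rose and 6 fell in Pear1-/-. Between the bleo groups 17 were lower and 0 higher in Pear1-/- bleo than in WT bleo. Of all genes 31.4% rose and 36.5% fell with bleo in WT, and 29.1% rose and 33.1% fell in Pear1-/-. Between the bleo groups 24% of all genes were lower and 22.1% higher in Pear1-/- bleo than in WT bleo. Cd68, a macrophage marker, read 745 ± 27.2 normalized counts with vehicle and 5497 ± 53.9 with bleo in WT, and 706 ± 17.7 with vehicle and 2360 ± 93.5 with bleo in Pear1-/-, with the bleo groups in the same order as for Lpar6. Ptprc, a marker of leukocytes in general, read 3303 ± 479 normalized counts with vehicle and 7616 ± 97.8 with bleo in WT. In Pear1-/- Ptprc did not rise, at 3818 ± 263 with vehicle and 3365 ± 109 with bleo (log2 fold change -0.18, edgeR adjusted p = 0.0677). Over the 12 libraries the genes whose centred log2 CPM lay nearest to that of Lpar6 were H2-Eb1, Cybb and Pilra, with root mean square differences of 0.129, 0.141 and 0.145. H2-Eb1 encodes an MHC class II chain and Cybb a subunit of the phagocyte NADPH oxidase. The part of leukocyte RNA in the Lpar6 values was not tested.

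The remaining LPA receptors were weakly expressed. Lpar3 read 28.6 to 48.7 normalized counts with vehicle and 24.8 to 34.7 with bleo in WT. In Pear1-/- it read 31.2 to 43.6 with vehicle and 44.7 to 56.8 with bleo. The 2 bleo groups did not overlap, and Lpar3 was 1.69-fold higher in Pear1-/- bleo (log2 fold change 0.76, SE 0.238, edgeR adjusted p = 0.0133), a call that 18 of 21 settings kept and that was lost without WT bleo replicate 1 (edgeR adjusted p = 0.0787), WT bleo replicate 3 (0.0619) or Pear1-/- bleo replicate 1 (0.0888). The change of Lpar3 with bleo was -0.46 in WT (edgeR adjusted p = 0.107) and 0.35 in Pear1-/- (0.190), neither past the threshold. Without WT vehicle replicate 3 the change in WT was -0.64 (edgeR adjusted p = 0.0329).

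Lpar4, an X-linked receptor, had 8 to 11 counts per library in WT bleo, 13 to 22 in Pear1-/- bleo and 18 to 34 in the vehicle groups. It fell with bleo by 1.66 on the log2 scale in WT (SE 0.344, edgeR adjusted p = 3.09e-04) and had a log2 fold change of -0.81 in Pear1-/- (SE 0.319, edgeR adjusted p = 0.0342), the second call being lost in 6 of 21 settings, with DESeq2 (adjusted p = 0.0881) among them. Lpar4 did not pass between the bleo groups (0.64, SE 0.365, edgeR adjusted p = 0.163). Lpar2 had 1 to 11 counts per library, did not pass the filter and was not tested. Lpar5, the LPA receptor outside the chosen set, rose by 1.21 on the log2 scale with bleo in WT (SE 0.325, edgeR adjusted p = 0.00294). Its change in Pear1-/- (0.36, edgeR adjusted p = 0.327) and its difference between the bleo groups (-0.45, edgeR adjusted p = 0.225) did not pass.

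The make-up of the LPA receptor RNA differed between the groups. Of the summed TPM of Lpar1 to Lpar6, Lpar1 made up 83.8 ± 1.72% in WT vehicle and 86.3 ± 1.13% in Pear1-/- vehicle (SD, n = 3). In WT bleo its share was 34.8 ± 0.255% and that of Lpar6 was 51.5 ± 1.72%. In Pear1-/- bleo Lpar1 still held 64.9 ± 1.68%, against 19.4 ± 1.25% for Lpar6. The summed TPM was 102 ± 4.84 in WT vehicle and 96.6 ± 9.07 in Pear1-/- vehicle, against 88.9 ± 2.88 in WT bleo and 75.3 ± 3.25 in Pear1-/- bleo. The sum was thus also lower after bleo in each genotype. Shares within a library do not depend on how libraries are scaled to each other, but the part of Rb1 reads and of leukocyte RNA in the share of Lpar6 was not tested.

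**Figure D2:**
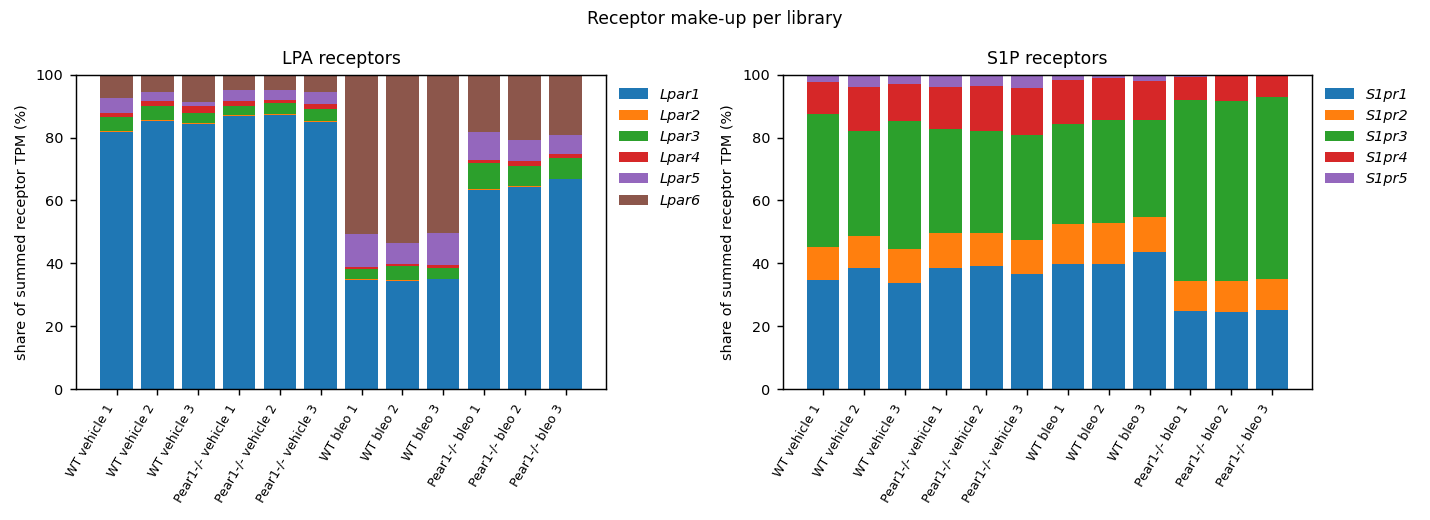
Share (%) of each gene in the summed TPM of the 6 LPA receptors (left) and the 5 S1P receptors (right), 1 bar per library. Lpar6 takes 50.4 to 53.5% of the LPA receptor sum in WT bleo, and S1pr3 takes 57.1 to 57.7% of the S1P receptor sum in Pear1-/- bleo.

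S1pr3, a receptor coupled to Gq and G12/13 besides Gi, showed the largest difference between the bleo groups among the members tested. It lies on chromosome 13 (chr13:51408639-51422797, plus strand). The 250 bases before its RefSeq start (GRCm38.p6, chr13:51408368-51408617, plus strand) held the SMAD box CAGACA starting 56 bases before the start and the GC box GGGCGG starting 20 bases before it.
S1pr3: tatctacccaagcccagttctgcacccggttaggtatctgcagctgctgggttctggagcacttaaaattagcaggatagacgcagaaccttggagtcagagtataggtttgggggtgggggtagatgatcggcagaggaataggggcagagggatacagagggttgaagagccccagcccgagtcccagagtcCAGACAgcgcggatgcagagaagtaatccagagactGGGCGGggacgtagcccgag

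No annotated exon fell in either window. Motifs were searched on both strands as TGANTCA (AP-1), GGAATG (TEAD), CAGACA (SMAD), the CArG box, GAGGAAGT (PU.1), TATAAA and GGGCGG, and no match overlapped another in these windows. Of 32851 RefSeq promoter windows of that length, 17.1% held CAGACA, 12.6% GGAATG and 32.7% GGGCGG, so the matches are common and are given as a description only. RefSeq windows were matched for 8 of the 10 genes.

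S1pr3 read 1526, 1452 and 1496 normalized counts in WT vehicle and 1419, 1384 and 1499 in Pear1-/- vehicle. After bleo it read 587, 618 and 573 in WT and 1714, 1783 and 1830 in Pear1-/-. The vehicle groups overlapped, the WT bleo libraries lay below all others, and the Pear1-/- bleo libraries lay above all others. S1pr3 fell by 1.32 on the log2 scale with bleo in WT (SE 0.0678, edgeR adjusted p = 2.74e-12) and rose 1.24-fold in Pear1-/- (0.31, SE 0.0654, edgeR adjusted p = 4.16e-04). It was 2.97-fold higher in Pear1-/- bleo than in WT bleo (1.57, SE 0.0678, edgeR adjusted p = 1.33e-12). The interaction was 1.63 (SE 0.0940, edgeR adjusted p = 3.50e-10) and 1.57 without WT vehicle replicate 2 (edgeR adjusted p = 2.07e-23). Its nearest genes in pattern were Angptl2, St5 and Myl9, with root mean square differences of 0.0968, 0.101 and 0.115, and Myl9 encodes a myosin light chain of contractile cells.

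Markers of mesenchymal cells also differed between the bleo groups, in both directions. Summed levels of 7 pericyte and smooth muscle markers were 284 to 292 CPM in WT bleo and 684 to 720 in Pear1-/- bleo, and 371 to 432 and 370 to 402 in the vehicle groups. Pdgfrb was higher by 1.10 on the log2 scale in Pear1-/- bleo than in WT bleo (edgeR adjusted p = 1.15e-09) and Pdgfra by 0.80 (edgeR adjusted p = 1.04e-08). Of those 7 markers, 3 were higher and 2 lower in Pear1-/- bleo (22.1% and 24% of all genes), with Des, the muscle intermediate filament desmin, higher by 1.84 and Notch3 lower (log2 fold change -0.76). The 12 fibroblast markers summed to 35173 to 36349 CPM with vehicle and 11620 to 11769 with bleo in WT, and to 34084 to 36464 with vehicle and 26799 to 27540 with bleo in Pear1-/-. Between the bleo groups 4 of them were higher and 3 lower in Pear1-/- bleo, against the same shares of all genes, with the collagen genes Col1a1 and Col1a2 higher by 1.73 and 1.44 on the log2 scale and the adventitial markers Col14a1 and Pi16 lower, at -1.08 and -0.84. Their part in the differences of S1pr3, Lpar1, Enpp2 and, below, Sphk1 was not tested.

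S1pr1, the Gi-coupled receptor known for barrier function of endothelium and for lymphocyte exit, lies on chromosome 3 (chr3:115710433-115715072, minus strand). It read 854, 1145 and 848 normalized counts in WT vehicle and 1136, 1143 and 1128 in Pear1-/- vehicle. In WT bleo it read 499, 511 and 556, and in Pear1-/- bleo 509, 527 and 542. The bleo groups overlapped and lay below all vehicle libraries. S1pr1 fell with bleo by 0.85 on the log2 scale in WT (SE 0.0940, edgeR adjusted p = 2.04e-07) and its log2 fold change was -1.11 in Pear1-/- (SE 0.0933, edgeR adjusted p = 6.56e-09). Between the bleo groups the log2 difference was -0.00134 (SE 0.0948, edgeR adjusted p = 1), and its sign changed with the scaling. Without WT vehicle replicate 2, S1pr1 was higher in Pear1-/- vehicle than in WT vehicle by 0.48 (edgeR adjusted p = 2.47e-08), and the interaction went from -0.25 (0.140) to -0.49 (edgeR adjusted p = 1.15e-05). Of 10 endothelial markers, 9 fell and 0 rose with bleo in each genotype, where 36.5% of all genes fell in WT and 33.1% in Pear1-/-, and their summed level was 591 to 636 CPM with vehicle and 321 to 339 with bleo in WT, and 623 to 669 with vehicle and 333 to 352 with bleo in Pear1-/-. Pecam1 had log2 fold changes of -0.54 and -0.76. Cd3e, a T cell marker, also fell in both genotypes (log2 fold changes -0.75 and -1.58, edgeR adjusted p = 1.19e-04 and 1.33e-08). Cd79a, a B cell marker, passed in neither (log2 fold changes 0.29 and -0.55, edgeR adjusted p = 0.288 and 0.0586). The part of endothelial and lymphocyte RNA in S1pr1 was not tested.

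S1pr2, which couples to G12/13 among other G proteins, lies on chromosome 9 (chr9:20962361-20976781, minus strand). Its normalized counts were 683 to 809 with vehicle and 377 to 439 with bleo in WT, and 810 to 877 with vehicle and 509 to 563 with bleo in Pear1-/-, with no overlap between any of these ranges. It fell with bleo by 0.84 on the log2 scale in WT (edgeR adjusted p = 3.58e-08) and had a log2 fold change of -0.65 in Pear1-/- (edgeR adjusted p = 9.80e-07), and it was 1.30-fold higher in Pear1-/- bleo than in WT bleo (edgeR adjusted p = 7.56e-04). Its interaction did not pass (0.19, SE 0.113, edgeR adjusted p = 0.211).

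In the S1P receptor sum, S1pr3 held 38.7 ± 4.78% of TPM with vehicle and 31.8 ± 1.10% with bleo in WT, but 32.8 ± 0.444% with vehicle and 57.4 ± 0.298% with bleo in Pear1-/- (SD, n = 3). S1pr1 held 35.6 ± 2.48% and 41.0 ± 2.19% in WT, and 38.1 ± 1.32% and 24.9 ± 0.166% in Pear1-/-, in the same order. S1pr3 was thus the larger of these parts by far in the Pear1-/- bleo libraries, and its share was at most 42.2% in the others. The sum itself was 218 ± 8.87 TPM with vehicle and 121 ± 1.03 with bleo in WT, against 205 ± 3.36 and 184 ± 5.74 in Pear1-/-.

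Sphk1, whose product phosphorylates sphingosine to S1P, lies on chromosome 11 (chr11:116530925-116536674, plus strand). It read 423, 496 and 435 normalized counts in WT vehicle and 449, 443 and 547 in Pear1-/- vehicle. It read 543, 542 and 608 in WT bleo and 1014, 1081 and 1096 in Pear1-/- bleo. The vehicle groups overlapped, the Pear1-/- vehicle and WT bleo libraries overlapped, and the Pear1-/- bleo libraries lay above all others. Sphk1 rose 1.26-fold with bleo in WT (0.33, SE 0.0905, edgeR adjusted p = 0.00327) and 2.23-fold in Pear1-/- (1.15, SE 0.0883, edgeR adjusted p = 1.65e-09). It was 1.87-fold higher in Pear1-/- bleo than in WT bleo (edgeR adjusted p = 8.60e-08), and the interaction was 0.82 (SE 0.126, edgeR adjusted p = 4.88e-05).

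**Figure D3:**
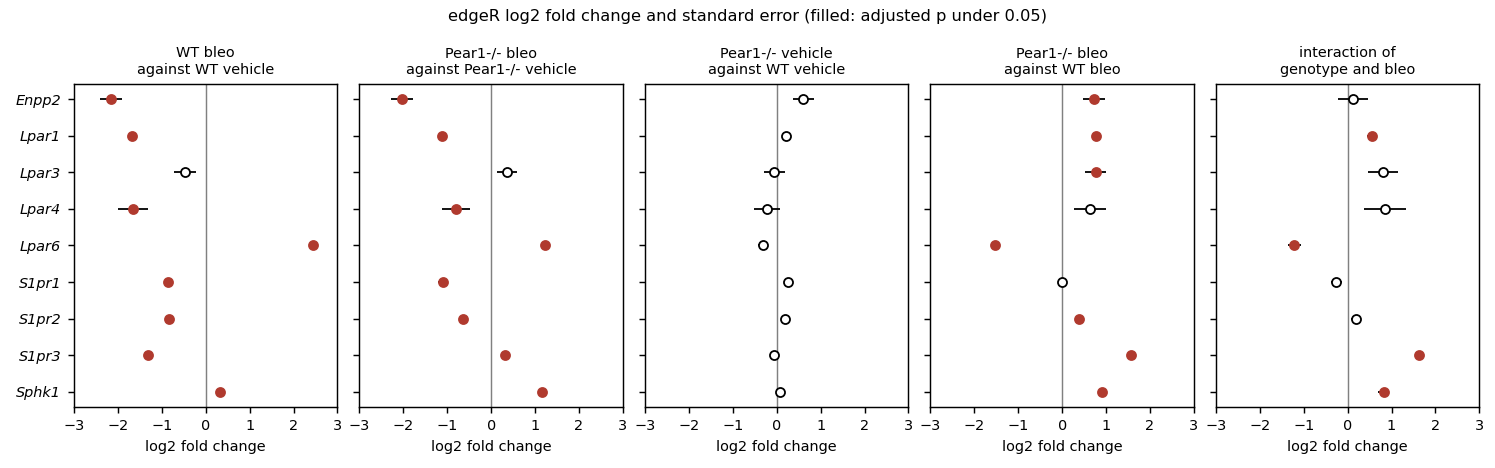
Log2 fold change with its standard error (edgeR) of the 9 members tested, in 4 comparisons and the interaction. Filled points have an adjusted p under 0.05. S1pr3 falls in WT bleo and rises in Pear1-/- bleo, and no member is filled in the vehicle comparison.

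Counted over the set, 8 of the 9 members tested passed an adjusted p of 0.05 with bleo in WT, 2 higher and 6 lower, where 67.9% of all 17418 genes tested passed, 31.4% higher and 36.5% lower. With bleo in Pear1-/-, 8 passed, 3 higher and 5 lower, against 62.2% of all genes, 29.1% higher and 33.1% lower. In each genotype 5 of them also changed over 2-fold, against 33.8% and 27.7% of all genes. Between Pear1-/- bleo and WT bleo 7 passed, 6 higher and 1 lower, against 46.1%, of which 22.1% of all genes were higher and 24% lower. Only Lpar6 and S1pr3 of these changed over 2-fold, against 15% of all genes. For the interaction 4 passed, Lpar1, S1pr3 and Sphk1 upward and Lpar6 downward, against 37.1% of all genes, 17.8% upward and 19.3% downward. Without WT vehicle replicate 2, 6 members passed the interaction, against 46.4% of all genes. The median log2 fold change of the 9 was -0.85 in WT and -0.65 in Pear1-/- with bleo and 0.72 between the bleo groups, beside medians over all genes of -0.071, -0.048 and -0.013. These comparisons share libraries, and the shares of members were read only against those of all genes, most of which also changed with bleo.

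Between the vehicle groups 0 of 9 members passed with all libraries (edgeR), where 7.24% of all genes passed, and 5 members, Enpp2, Lpar1, Lpar6, S1pr1 and S1pr2, had an unadjusted p under 0.05, as did 31.4% of all genes. DESeq2 called 0 as well. Without WT vehicle replicate 2, 6 passed, where 55.3% of all 20405 genes then tested passed. Enpp2, Lpar1, S1pr1, S1pr2 and Sphk1 were higher and Lpar6 was lower in Pear1-/- vehicle, by 1.11, 0.38, 0.48, 0.34, 0.22 and -0.34 on the log2 scale. Replicate 2 lay nearer to the mean of the Pear1-/- vehicle libraries than to that of WT vehicle replicates 1 and 3 for 8 of the 10 members, all but Lpar2 and Lpar4. A difference between the genotypes without bleo can therefore not be told apart from the placing of this library.

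Of 8 genes that make or break down LPA, Enpp2 included, 5 fell and 1 rose with bleo in WT, where 36.5% of all genes fell and 31.4% rose. In Pear1-/- 4 fell and 1 rose, where 33.1% of all genes fell and 29.1% rose. Plpp3, a phosphatase that degrades extracellular LPA and S1P, had a log2 fold change of -2.40 in WT (SE 0.0640, edgeR adjusted p = 1.71e-16) and of -2.38 in Pear1-/- (SE 0.0639, edgeR adjusted p = 3.82e-16), beside -2.15 and -2.03 for Enpp2. Plpp1, a related phosphatase, fell by 1.05 with bleo in WT (edgeR adjusted p = 2.12e-09) and was higher by 0.95 in Pear1-/- bleo than in WT bleo (edgeR adjusted p = 2.06e-08). RNA of the enzyme that makes LPA and of one that removes it were both lower after bleo.

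Of 13 genes of S1P making, breakdown and transport, 12 were tested. With bleo 7 rose and 3 fell in WT, and 5 rose and 1 fell in Pear1-/-, while 2, Sphk1 among them, were higher and 7 lower in Pear1-/- bleo than in WT bleo. The shares of all genes were 31.4% higher and 36.5% lower, 29.1% and 33.1%, and 22.1% and 24%, in the same order. Sgpp1, an S1P phosphatase, rose by 1.19 on the log2 scale with bleo in WT (SE 0.126, edgeR adjusted p = 1.17e-07) and was lower in Pear1-/- bleo than in WT bleo (-1.69, SE 0.128, edgeR adjusted p = 2.72e-09). Acer3, a ceramidase that yields sphingosine, rose in both genotypes, by 1.49 and 1.05, and Abca1, a lipid exporter, by 1.29 and 0.44. Both were lower in Pear1-/- bleo than in WT bleo (log2 fold changes -0.54 and -0.74). The summed leukocyte markers were also lower there, at 8007 to 8213 CPM against 17831 to 18090. That sum rose with bleo in Pear1-/- too, where Sgpp1 did not pass (-0.13, edgeR adjusted p = 0.431). The part of leukocyte RNA in these genes was not tested. The leukocyte S1P receptor S1pr4 had log2 fold changes of -0.93 in WT and -1.43 in Pear1-/-, and S1pr5 of -2.06 and -3.47, so that 5 of 5 S1P receptors fell in WT, beside 36.5% of all genes, and 4 fell and 1 rose in Pear1-/-, beside 33.1% and 29.1% of all genes. S1pr5 had only 10 to 20 counts per library in WT bleo and 4 to 13 in Pear1-/- bleo, so the size of its changes rests on few reads. Cd3e fell beside S1pr4 and S1pr5 while Cd79a did not pass, as given above for S1pr1. The part of lymphocyte RNA in S1pr4 and S1pr5 was not tested.

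**Figure D4:**
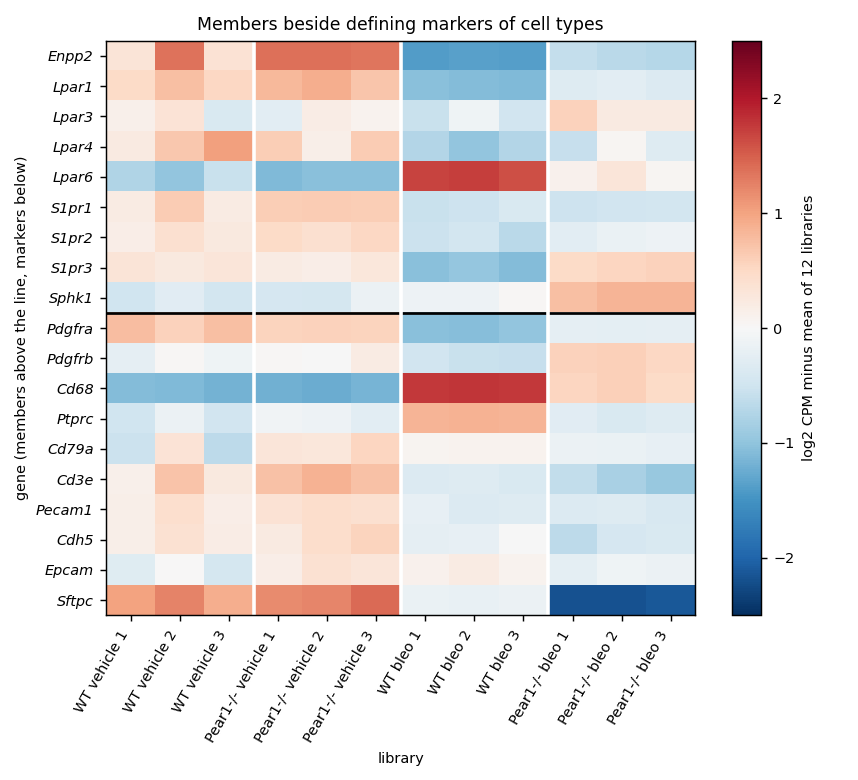
Log2 CPM of the 9 members tested and of defining cell type markers in the 12 libraries, each gene centred on its mean, in red where higher and blue where lower. Lpar6, like the macrophage marker Cd68, is highest in WT bleo, S1pr3 and Sphk1 are highest in Pear1-/- bleo, and Enpp2 separates WT vehicle replicate 2 from replicates 1 and 3.

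The genes nearest in pattern to the other members named different neighbours for each. Enpp2 was nearest to Gfpt2 (root mean square difference 0.112 in log2 CPM over 12 libraries, among 10721 genes), then Igf2 (0.190) and Cebpd (0.195). Lpar1 was nearest to Mustn1 (0.105), Mecom (0.110) and C1qtnf7 (0.111). For S1pr1 they were Dgka (0.0715), Rnase4 (0.0811) and Atp2a3 (0.0877), and for S1pr2 Gne (0.0902), Calcoco1 (0.0913) and Spint2 (0.0922). Sphk1 was nearest to Cdyl2 (0.0681), Tubb6 (0.0800) and Lgals1 (0.0807). Lpar3 and Lpar4 had no neighbour closer than Praf2 (0.183) and Tbxa2r (0.208).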

How the data were processed

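Bulk RNA-seq was made from sorted Pdgfra+ lung cells with a low-input full-length cDNA kit. The authors aligned reads to GRCm38 (mm10) with HISAT2, and the deposited counts are raw whole-read counts per gene for 12 libraries. The counting program and its use of strand are not given in the sources used here. The authors also deposited a normalized signal, which is the counts divided by a size factor per library: 100% of its values came back as whole reads (tolerance 0.001), and those reads gave the same calls as the counts (edgeR: 11834, 10841, 1261 and 8037 genes for bleo in WT, bleo in Pear1-/-, the vehicle groups and the bleo groups).

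Groups came from the labels. Counts were tested with edgeR 4.0.16 (quasi-likelihood, robust, two-sided; R 4.3.3) after TMM scaling and filterByExpr over the 4 groups (minimum count 10), in 1 fit of 12 libraries with 1 mean per group, with Benjamini-Hochberg adjustment over 17418 genes. The threshold was an adjusted p of 0.05. The SE is the log2 fold change divided by the square root of F. An exact permutation test of 3 against 3 cannot go below p = 0.1. TPM used exon lengths of GENCODE (40452 of 40760 genes). The test was checked on simulated counts for Pear1-/- bleo against WT bleo: it called 58% of genes changed 2-fold and 86% of genes changed 4-fold, and 7.1% of calls were false. Only 200 of 17418 genes were changed in that simulation, in both directions, and the others had the same mean in every group. In the data 46.1% of genes passed this comparison, so these rates need not hold there. The alternatives were DESeq2 1.42.0, limma 3.58.1 on variance-stabilized values (the study's method) and on log2 of the normalized value plus 1, other size factors, other filters, a replicate block, only the groups compared, each library left out, and, added after seeing the data, the recovered reads. Promoter sequences are from RefSeq (GRCm38.p6).

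The members and lists were chosen with earlier results of these data known. The named genes were all members, Pear1 and Pdgfra, at most 4 genes per pathway list and comparison with the largest change past the threshold, defining markers, and the 3 genes nearest in pattern to each member. Rb1 was added because it overlaps Lpar6, and Col1a1, Col1a2, Col14a1, Pi16, Des and Notch3 were named after their values were seen. A list of downstream signalling genes is not reported here.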

Additional observations from a re-analysis of the deposited data

Results flagged for a closer look

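For 4 of the 9 members tested, beside 37.1% of all genes, the effect of bleo differed between WT and Pear1-/- by the test of the difference itself (edgeR interaction term, 12 libraries, adjusted over 17418 genes). The log2 difference of the effects was 0.5656 for Lpar1 (edgeR adjusted p = 6.85e-04), -1.2183 for Lpar6 (edgeR adjusted p = 3.31e-06), 1.6318 for S1pr3 (edgeR adjusted p = 3.50e-10) and 0.8228 for Sphk1 (edgeR adjusted p = 4.88e-05). Without WT vehicle replicate 2 these were 0.39, -1.19, 1.57 and 0.67, and all 4 still passed, as did 46.4% of all genes. With 3 libraries a group, no single gene was tested for an outlying library.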

How the results depend on the processing

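The counts of members passing were 8 with bleo in WT, 8 with bleo in Pear1-/-, 0 between the vehicle groups, 7 between the bleo groups and 4 for the interaction. The vehicle count was 1 with limma on log2 of the normalized value plus 1 and 3 without a filter. Leaving out each library gave 8 to 9, 7 to 8, 0 to 6, 5 to 7 and 4 to 6 in that order, with 6 in the vehicle comparison and 6 for the interaction without WT vehicle replicate 2, where the share of all genes passing the interaction also went from 37.1% to 46.4%. With a replicate block the counts were 8, 8, 0, 7 and 4. The replicate numbers did not pair the libraries (18 pairs with correlations from -0.161 to 0.1, 0 above 0.1), and the block changed no count. Of 936 values of single members under the alternatives, 890 kept direction and side of the threshold, 19 lost it, 13 gained it and 14 changed sign. Those that changed sign were the vehicle difference of Lpar3 (0.0361 without a filter, -0.2357 to 0.2086 with each library left out, 0.1252 among them without Pear1-/- vehicle replicate 1 and the highest without WT vehicle replicate 2) and of S1pr3 (0.036 without a filter, -0.0559 to 0.016 with each library left out), the difference of S1pr1 between the bleo groups (0.0118 with DESeq2 and with limma on variance-stabilized values, 0.0127 with limma on log2 values and without a filter, 0.0068 with other size factors, 0.005 with the bleo libraries alone, -0.0435 to 0.0365 with each library left out) and the interaction of Enpp2 (-0.3924 to 0.2939 with each library left out, below 0 only without WT vehicle replicate 2). Over all genes the vehicle comparison gave 1261 calls, 823 with DESeq2, 161 with limma on variance-stabilized values, 5676 without a filter, 11281 without WT vehicle replicate 2, and 0 with the vehicle libraries alone (3189 with an unadjusted p under 0.05) or without either other WT vehicle replicate (2987 without replicate 1 and 2961 without replicate 3) or without any of the Pear1-/- vehicle replicates (5563 to 5876). The causes were not tested. Lpar2, with 1 to 11 counts, and Lpar4 in WT bleo, with 8 to 11, are limited by depth.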
